A study of Homo sapiens with 8 samples.

Results

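TXNIP, the related arrestin-domain genes ARRDC4 and ARRDC3, the transcription factor genes MLXIP, MLXIPL and MLX, and the glucose transporter genes SLC2A1 and SLC2A3 were followed in HEK293T cells with and without overexpression of the potassium channel subunit KCNQ3. The 8 genes were taken by name out of 58592 genes to which deposited transcripts could be joined, and all 8 passed the filter on low counts that left 19280 genes for testing. They were chosen by role, with the expression values and fold changes of this same comparison already known, so their differences between the groups are given as a description and not as a test.

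HEK293T is an established line of human embryonic kidney origin, made to express the large T antigen of SV40. The control group was 4 libraries with the genotype label control, and the overexpression group was 4 libraries of cells transfected, by FuGene HD, with a KCNQ3 construct that carries a tag. Harvest was 48 hours after transfection. All 8 libraries came from cells in high-glucose DMEM with fetal bovine serum. The transfection text is attached to every sample, so the sources used here do not say whether control cells received reagent or plasmid. Transfection is transient and can leave cells without the construct, and the share of transfected cells is not given. Nothing states that the libraries of a group came from separately started cultures, so the spread between them may be technical.

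TXNIP, the thioredoxin-interacting protein, is an alpha-arrestin. It binds thioredoxin, and it lowers glucose uptake by promoting the removal of the glucose transporters GLUT1 and GLUT4 from the cell surface. Its gene is among those most responsive to glucose. MLXIP encodes MondoA and MLXIPL encodes ChREBP, and each pairs with MLX, enters the nucleus when glucose phosphates rise, and binds carbohydrate response elements, which are pairs of E-box-like sites, in promoters such as those of TXNIP and ARRDC4. SLC2A1 encodes GLUT1, the transporter of basal glucose uptake in most cultured cells, and SLC2A3 encodes GLUT3, the high-affinity transporter best known from neurons.

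The promoters of TXNIP and ARRDC4 are printed because these genes are targets of the MLX factors and were the arrestin genes with the largest differences. Both run 5′ to 3′ on the gene's own strand, from 250 bases before to 50 bases after the start that RefSeq gives (GRCh38.p14), and capitals mark an E-box (CACGTG) in ARRDC4 and the CACGAG sites of a paired element in TXNIP.
TXNIP, chr1:145996530-145996829, minus strand: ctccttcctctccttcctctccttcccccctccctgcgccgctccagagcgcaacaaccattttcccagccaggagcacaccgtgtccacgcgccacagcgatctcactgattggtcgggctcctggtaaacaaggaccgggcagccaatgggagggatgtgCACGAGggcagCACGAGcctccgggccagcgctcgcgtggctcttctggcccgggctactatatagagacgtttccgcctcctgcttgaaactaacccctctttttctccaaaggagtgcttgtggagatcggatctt
ARRDC4, chr15:97960453-97960752, plus strand: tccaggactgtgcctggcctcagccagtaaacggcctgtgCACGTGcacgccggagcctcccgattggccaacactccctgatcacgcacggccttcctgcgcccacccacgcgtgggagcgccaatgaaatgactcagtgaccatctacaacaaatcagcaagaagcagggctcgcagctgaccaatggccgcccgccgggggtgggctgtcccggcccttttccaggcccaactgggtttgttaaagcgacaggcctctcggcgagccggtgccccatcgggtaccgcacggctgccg

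In the TXNIP window a pair of CACGAG sites separated by 5 bases lies at positions -88 to -72 from the start (chr1:145996651-145996667). This pair, CACGAG, 5 bases of any kind and CACGAG, searched on both strands, was present in 2 of 35116 promoter windows of this length (0.00570%), those of TXNIP and KCTD5. The wider pair of CACGNG sites at the same spacing, which takes in the former, was present in 20 windows (0.0570%). Of the 8 genes, TXNIP alone had a match to these paired motifs within the windows searched. The search took both sites in the same orientation only. The CACGAG pair has the letters of the TXNIP sites, so its match there was fixed. The single E-box CACGTG was found in 7.26% of windows, among them that of ARRDC4 at -210 to -205 and that of MLX at -50 to -45. Windows were present for 7 of the 8 genes, 9 windows in all, and SLC2A3 had none. A match describes letters and does not show that a factor was bound there.

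Total estimated counts ran from 24020097 to 30734915 per library. KCNQ3 itself, counted as a check of the labels, ranged from 0 to 5 in the control group and from 15283 to 19709 in the overexpression group. Genes listed for HEK293T and embryonic kidney were present, with all 9 counted, VIM and NEFM the most abundant, PAX8 at or near 0, and summed levels of 978 to 1146 CPM (counts per 1000000) in the controls against 931 to 1051 CPM after overexpression. Of fibroblast and blood markers, COL1A2, DCN, THY1, PTPRC, CD3E and HBB had no count in any library. Mitochondrially encoded genes took 3.99% to 5.59% of gene counts in the control group and 4.82% to 5.84% in the other. The part of this share in the differences below was not tested.

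Of the 8 genes, TXNIP was lower and SLC2A1 higher after overexpression, and the 3 factor genes had log2 fold changes of -0.05 to 0.11. By the quasi-likelihood test of edgeR, Benjamini-Hochberg adjusted over all genes, TXNIP and SLC2A1 passed the threshold of 0.05, 2 of the 8. Over all genes tested 0.301% passed, 58 in number, 21 higher (0.109%) and 37 lower (0.192%). The split was 9 higher and 26 lower without a scaling factor, and 5 and 2 on either TPM scale. Since the choice of genes used this comparison, nothing is read from the 2. Levels of single genes below are CPM scaled by TMM factors, which align libraries on the bulk of genes, and each log2 fold change sets overexpression over control, with its standard error (SE) from that fit. In RNA from bulk cultures, fewer cells with a transcript and less of it per cell cannot be told apart.

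**Figure D1:**
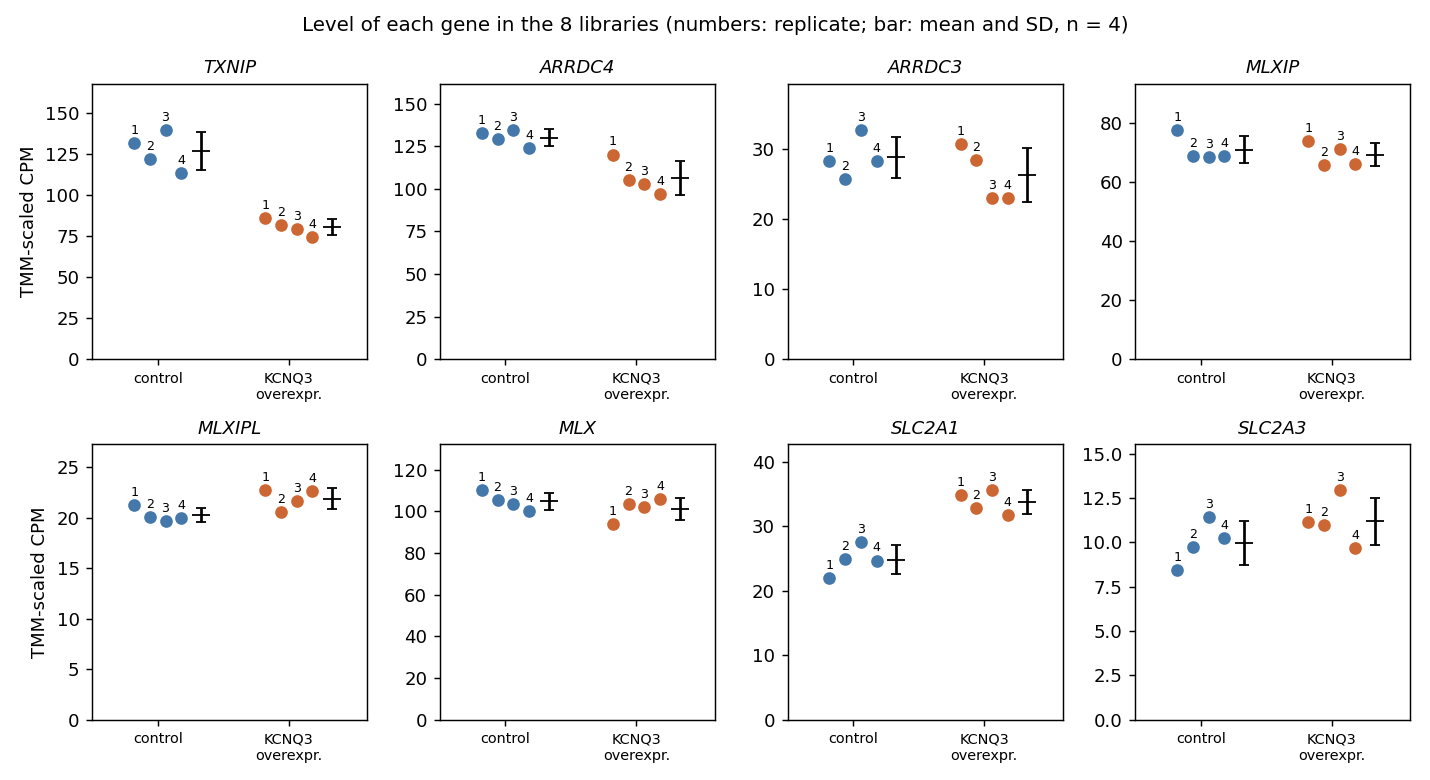
TMM-scaled CPM of the 8 genes in each library (vertical axes start at 0, numbers are replicates, bars are mean and SD, n = 4). TXNIP and ARRDC4 are lower in each overexpression library than in each control, SLC2A1 is higher in each, and the other 5 genes overlap.

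TXNIP (ENSG00000265972, chromosome 1, 145992435 to 145996600, minus strand) was at 132, 122, 140 and 113 CPM in the controls, replicates 1 to 4 in order here and below, and at 86.2, 81.8, 79.0 and 74.2 CPM with overexpression. The groups did not overlap, with the highest overexpression library well under the lowest control. The mean went from 127 ± 11.6 to 80.3 ± 5.03 CPM (SD, n = 4 each), a ratio of 0.634 and a log2 fold change of -0.66 (SE 0.07). In rank, TXNIP moved from place 1484 to place 2876 among the 19280 genes by CPM. The call ended on both TPM scales (log2 -0.71 and -0.72) and when protein-coding transcripts alone were summed (-0.64).

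ARRDC4 (ENSG00000140450, chromosome 15, 97960698 to 97973838, plus strand), an alpha-arrestin whose gene is like TXNIP a target of MondoA, was at 133, 129, 135 and 124 CPM in controls and at 120, 105, 103 and 97.2 CPM in overexpression replicates 1 to 4. Groups did not overlap on the CPM scale, though overexpression replicate 1 lay close to control replicate 4. Its mean was 130 ± 4.81 CPM in controls and 106 ± 9.83 after overexpression (log2 -0.29, SE 0.06), and it did not pass the threshold over all genes. On the TPM scale, which divides by transcript length, the groups overlapped: overexpression replicate 1 at 49.3 TPM was above control replicate 4 at 47.2. Without overexpression replicate 1 the log2 fold change was -0.36 and ARRDC4 passed, as it also did with DESeq2 (-0.30), which called 9.9% of all genes to which it gave an adjusted p.

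ARRDC3 (ENSG00000113369, chromosome 5, 91368724 to 91383359, minus strand), an alpha-arrestin known for a part in turnover of the beta2-adrenergic receptor, was at 28.3, 25.8, 32.9 and 28.4 CPM in controls and at 30.8, 28.5, 23.1 and 23.0 CPM in overexpression replicates 1 to 4. These ranges overlap across most of their width. Overexpression replicates 3 and 4 alone lay below every control. The log2 fold change was -0.13 with an SE of 0.11, so the difference is within the spread between libraries. ARRDC3-AS1, a noncoding RNA that starts inside ARRDC3 on the opposite strand, ranged from 36 to 82 counts in the control group and from 21 to 57 in the other. Without stated strand, reads of the overlap cannot be given to either gene with certainty.

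For the 3 alpha-arrestin genes the differences were therefore ordered TXNIP, ARRDC4, ARRDC3, from the furthest below 0 to the nearest. Ratios of TPM within a library, into which no scaling between libraries enters, are given as a description. They restate the differences of the same genes in the same libraries. TXNIP to ARRDC4 was 1.46, 1.34, 1.48 and 1.35 in the controls against 1.01, 1.13, 1.09 and 1.09 with overexpression. The TPM of TXNIP was thus about level with that of ARRDC4 after overexpression, and the groups did not overlap. TXNIP to ARRDC3 went from 6.26 ± 0.46 to 4.30 ± 0.38, again without overlap. ARRDC4 to ARRDC3 went from 4.45 ± 0.41 to 3.98 ± 0.29 with overlap, so this ratio did not separate the groups.

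MLXIP (ENSG00000175727, chromosome 12, 122078722 to 122147347, plus strand), the gene of MondoA, was at 77.9, 68.7, 68.7 and 68.7 CPM in controls and at 74.0, 65.9, 71.1 and 66.1 CPM in overexpression libraries. Control replicate 1 stood apart from the other controls, which were almost equal. The log2 fold change was -0.04 (SE 0.06), and without control replicate 1 it was 0.01. No direction can be given for MLXIP.

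MLXIPL (ENSG00000009950, chromosome 7, 73593194 to 73624543, minus strand), the gene of ChREBP, was at 21.2, 20.1, 19.7 and 19.97 CPM in controls and at 22.7, 20.6, 21.7 and 22.6 CPM in overexpression libraries. The groups met only through control replicate 1, which was above overexpression replicate 2. The log2 fold change was 0.11 (SE 0.05) and did not pass over all genes. ChREBP is best known from liver and fat, and here its gene had a length-scaled level (TPM) close to that of MLXIP. MLXIP to MLXIPL in TPM was 1.17 ± 0.055 in controls and 1.03 ± 0.079 in overexpression libraries. Each overexpression library was below each control, but overexpression replicate 1 at 1.106 lay just under control replicate 4 at 1.107. The TPM of MLXIPL rests on a division among transcripts that was unsteady, as given below.

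MLX (ENSG00000108788, chromosome 17, 42567068 to 42573239, plus strand), the shared partner without which neither factor binds DNA, was at 110, 105, 104 and 100 CPM in controls and at 93.8, 103, 102 and 106 CPM in overexpression replicates 1 to 4. Overexpression replicate 1 was the lowest of all 8 libraries, while replicate 4 was above 3 of the 4 controls. The log2 fold change was -0.05 (SE 0.05). The 3′ end of MLX overlaps that of PSMC3IP on the opposite strand, which ranged from 1132 to 1408 counts in the control group and from 889 to 1053 in the other and did not pass the threshold (adjusted p = 0.0758 by edgeR's quasi-likelihood test). The part of PSMC3IP reads in the MLX values was not tested.

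SLC2A1 (ENSG00000117394, chromosome 1, 42925375 to 42959176, minus strand) was at 22.0, 24.98, 27.6 and 24.7 CPM in controls and at 34.9, 32.8, 35.6 and 31.7 CPM in overexpression libraries. Each overexpression library was above each control, in CPM and in TPM. The mean went from 24.8 ± 2.29 to 33.8 ± 1.79 CPM, a ratio of 1.36 and a log2 fold change of 0.44 (SE 0.07). The call was less stable than that of TXNIP. It ended without control replicate 1 or 2 (log2 0.39 and 0.44), without overexpression replicate 2, 3 or 4 (0.45, 0.41 and 0.47), and on the TPM scales, where the log2 fold change was 0.34 and 0.36. SLC2A1-AS1, which overlaps the first bases of SLC2A1 on the opposite strand, had 14 to 27 counts in either group, against 621 to 954 for SLC2A1.

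SLC2A3 (ENSG00000059804, chromosome 12, 7919230 to 7936275, minus strand) was at 8.46, 9.76, 11.5 and 10.3 CPM in controls and at 11.1, 10.96, 12.9 and 9.70 CPM in overexpression libraries. The groups overlapped, overexpression replicate 4 being under 3 of the controls. The log2 fold change was 0.17 (SE 0.11) and did not pass. SLC2A14 on the same chromosome is a near-identical copy that can take SLC2A3 reads. It ranged from 36 to 42 counts in the control group and from 37 to 60 in the other, and with both genes summed the log2 fold change was 0.19.

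TXNIP and SLC2A1 differed in opposite directions in the same libraries. Each separated the groups in TPM, so their ratio within a library could not overlap between the groups and is given as a description. TXNIP to SLC2A1 in TPM was 6.69, 5.46, 5.70 and 5.26 in the controls against 2.81, 2.85, 2.55 and 2.64 with overexpression. ARRDC4 to SLC2A1 went from 4.10 ± 0.33 to 2.51 ± 0.19, also without overlap. Over all genes tested, 11.6% had CPM ranges that did not overlap between the groups (5.84% higher, 5.77% lower), and 3 of the 8 genes did.

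**Figure D2:**
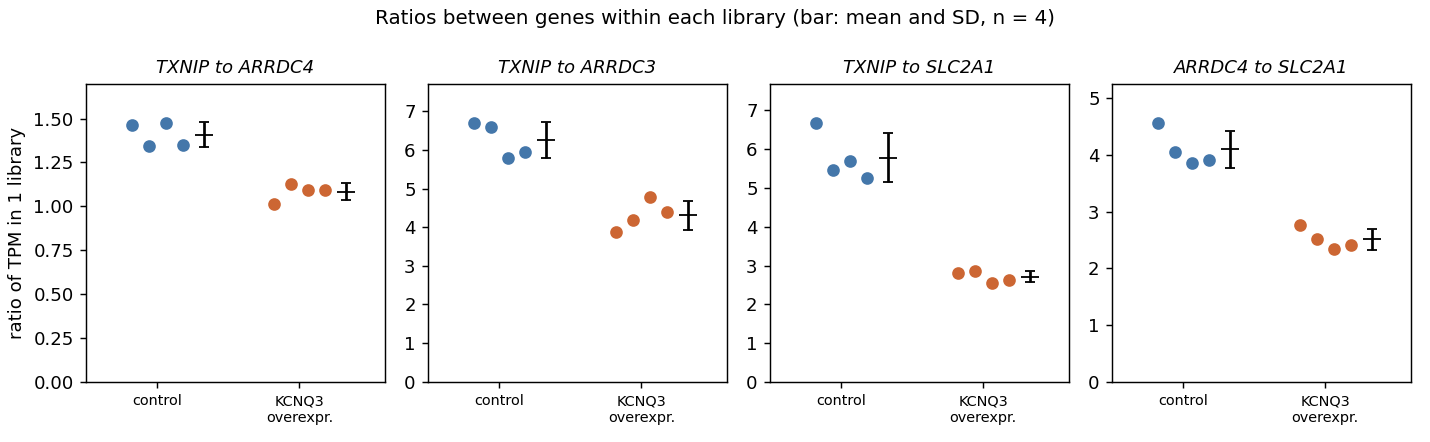
Ratios of TPM between pairs of genes within each library (points are libraries, bars are mean and SD, n = 4, vertical axes start at 0). The 4 ratios are lower in each overexpression library than in each control. TXNIP to SLC2A1 goes from 5.78 ± 0.63 to 2.71 ± 0.14. Its separation follows from that of each gene in TPM.

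Compared per length, the levels fell into an upper and a lower set. In controls TXNIP at 73.9 ± 8.45 TPM and MLX at 71.7 ± 4.59 TPM were highest and could not be ordered, since TXNIP was above MLX in 2 of 4 libraries. ARRDC4 followed at 52.4 ± 3.70 TPM, below both in every library range. A lower set held MLXIP at 15.5 ± 1.64, MLXIPL at 13.2 ± 1.26, SLC2A1 at 12.8 ± 0.93 and ARRDC3 at 11.9 ± 1.496 TPM. The ranges of neighbours in this set overlapped, and SLC2A3 at 4.38 ± 0.81 TPM was below it.

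After overexpression the order at the top could be given: MLX at 66.4 ± 2.07 TPM was above TXNIP at 44.7 ± 3.93 TPM in each library and without overlap. TXNIP and ARRDC4 (41.5 ± 5.34 TPM) overlapped in range, with TXNIP higher in 4 of 4 libraries. SLC2A1 at 16.5 ± 1.12 TPM moved from place 6 to place 4 among the 8, above MLXIP at 14.3 ± 1.21 TPM in each library although the ranges overlapped. MLXIPL followed at 13.9 ± 0.71, ARRDC3 at 10.5 ± 1.76 and SLC2A3 at 5.01 ± 0.51 TPM. The MLX factor thus had several times the length-scaled transcript level of either of its partners in both groups, with MLXIP to MLX at 0.216 ± 0.011 in controls and 0.216 ± 0.022 after overexpression. MLXIPL to MLX went from 0.185 ± 0.012 to 0.209 ± 0.00961, and the groups did not overlap. The unsteady division of MLXIPL among its transcripts, given below, enters this ratio too.

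**Figure D3:**
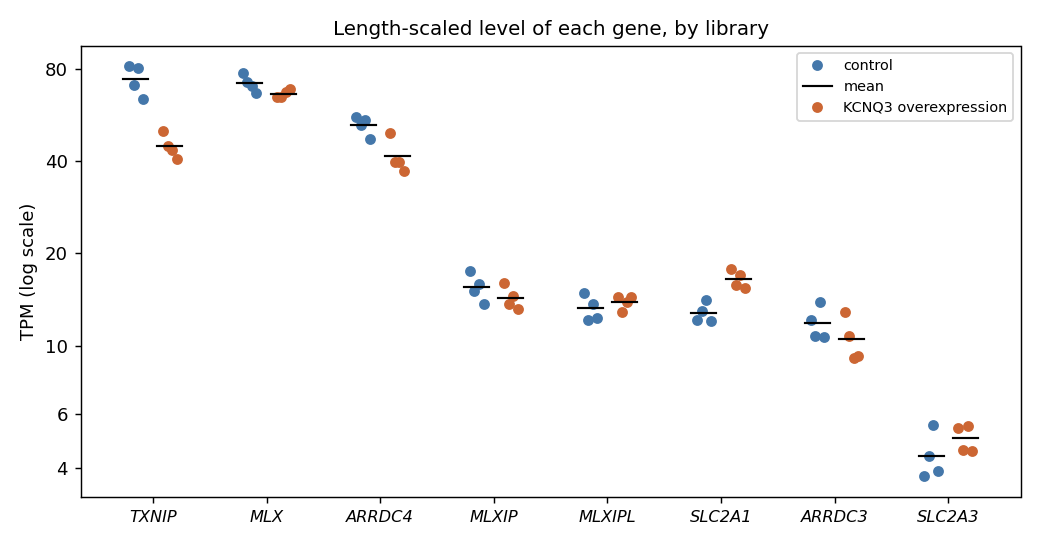
TPM of the 8 genes by library on a log axis, ordered by the control mean (points are libraries, lines are means of 4). TXNIP and MLX are level in controls and apart after overexpression, and SLC2A3 is lowest in both groups.

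Annotated transcripts were considered next, since the deposited values are estimates per transcript. ARRDC4 has 1 annotated transcript, so its value needs no division. For TXNIP, the 2926-base transcript TXNIP-204 held 93.7% ± 3.3 of the gene's TPM in controls and 95.9% ± 1.8 after overexpression, and it went from 69.3 ± 8.62 to 42.9 ± 4.17 TPM. The difference in TXNIP was therefore carried by its main coding transcript. Single coding transcripts were likewise dominant in ARRDC3, MLXIP and MLX (ENST00000265138, ENST00000319080 and ENST00000246912), with control means of 92.8%, 86.1% and 86.8% of their genes. That of MLX had 78.3% in control replicate 4, where the retained-intron transcript MLX-206 was given 5.16 TPM against at most 2.13 in any other library.

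The division was unsteady for 3 genes. In SLC2A3, the coding transcript ENST00000075120 held 82.9% and 93.2% in control replicates 3 and 2 and 81.4% to 93.6% in overexpression libraries, but 8.58% and 5.06% in control replicates 1 and 4. In those 2 libraries the retained-intron transcript SLC2A3-205 was given 73.9% and 85.3% instead, against at most 1.005% in any other. The gene's own count hardly shows this exchange, with 261 and 258 counts in control replicates 1 and 4 and 258 and 274 in replicates 2 and 3. When coding transcripts alone were summed, the log2 fold change of SLC2A3 became 1.02, and it did not pass. In SLC2A1, control replicate 1 had 22.4% of TPM on ENST00000630287, a transcript marked for nonsense-mediated decay that was at 0 in the other 7 libraries, and with coding transcripts alone the SLC2A1 log2 fold change was 0.52 and no longer passed. MLXIPL was spread over 10 transcripts with a count, and its transcript ENST00000313375 ranged from 0% in overexpression replicates 2 and 4 to 67.3% in overexpression replicate 1. Isoform changes can therefore not be read for these 3 genes.

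**Figure D4:**
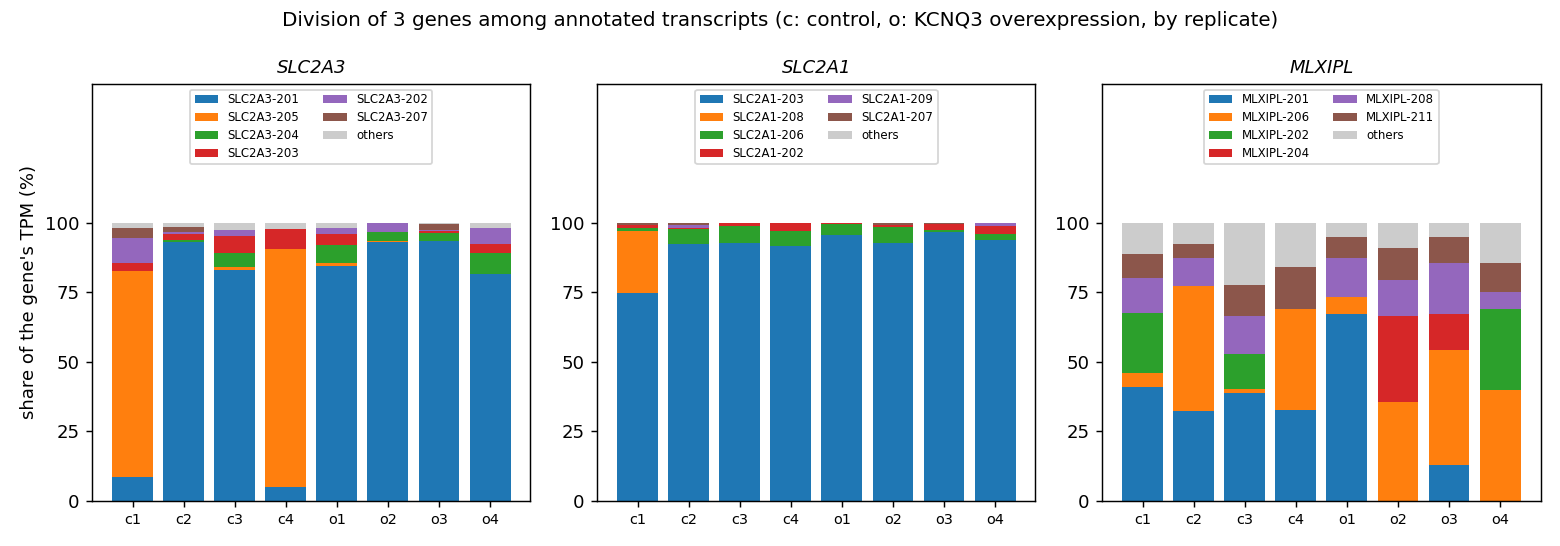
Share of each gene's TPM given to its annotated transcripts in SLC2A3, SLC2A1 and MLXIPL (bars are libraries, c for control and o for overexpression, numbered by replicate). SLC2A3-205 takes most of SLC2A3 in control replicates 1 and 4, and the SLC2A1 transcript marked for nonsense-mediated decay appears in control replicate 1 alone.

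Other genes of the same pathways were taken from 6 lists, chosen with earlier results of these data known. Of 72 listed genes 56 were tested, and 0 passed edgeR's quasi-likelihood test over all genes. At an unadjusted p under 0.05 there were 13 higher and 7 lower, 20 of 56, where 19.4% of all genes tested were past it (9.92% higher, 9.46% lower). DESeq2 called 5 of the 53 to which it gave an adjusted p (9.43%), near its share over all genes, 1352 of 13655 (9.9%). These genes, picked with their values known, were KLF10 (-0.29) and PRKAA2 (-0.21) lower and ELOVL6 (0.19), PRDX2 (0.13) and TXN2 (0.10) higher. KLF10, a glucose-responsive zinc finger repressor, was at 110 ± 7.92 CPM in controls and 90.4 ± 7.61 after overexpression. Its groups did not overlap in CPM (adjusted p = 0.0807 by edgeR's quasi-likelihood test). In TPM they overlapped, with overexpression replicate 1 at 56.0 above control replicate 4 at 46.5.

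Among targets of MondoA or ChREBP, 14 of 20 listed were tested, 6 with a log2 fold change above 0 and 8 below, with a median of -0.01 beside 0.01 over all genes. SCD, a fatty acid desaturase, and ACLY, which makes cytosolic acetyl-CoA, had the highest means over the 8 libraries, at 663 ± 43.1 against 725 ± 71.4 CPM and at 422 ± 25.5 against 448 ± 22.7 CPM. TXNIP at -0.66 was below each of the 14, of which FGF21 at -0.58 (SE 0.28) on about 1 CPM was the lowest and KLF10 at -0.28 the next. Over the list, 0 of 14 passed the threshold.

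Other genes of the SLC2A family lay on the side of SLC2A1 on the CPM scale. All 8 tested of 12 listed had a log2 fold change above 0, with a median of 0.12, as did 52.6% of all genes tested; on both TPM scales 5 of 8 did, beside about 40.3% of all genes. None passed over all genes. Of the 8, 3 had an unadjusted p under 0.05, each of them higher, where 19.4% of all genes tested were past it (9.92% higher). SLC2A14, among the 3, had few counts and can take SLC2A3 reads, as given above. SLC2A11 and SLC2A12 had the highest means over the 8 libraries, at 16.6 ± 0.65 against 18.1 ± 1.05 CPM and at 16.5 ± 1.12 against 17.5 ± 1.11 CPM. SLC2A1 at 0.44 was above each of them, the nearest being SLC2A14 at 0.38 (SE 0.16) and SLC2A4, the insulin-responsive GLUT4, at 0.30 (SE 0.09).

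The other arrestins tested were ARRDC1, ARRDC2, ARRB1 and ARRB2, and none passed the threshold. Their log2 fold changes ran from 0.01 to 0.14, 4 of 4 above 0, while 3 of 4 were without a scaling factor and 2 of 4 on the TPM scales. ARRB2, a beta-arrestin, was at 93.3 ± 1.31 and 98.0 ± 1.503 CPM, and ARRDC1 was at 21.7 ± 0.49 and 23.8 ± 1.31 CPM. ARRDC5 had no count.

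In the thioredoxin system, to which the TXNIP protein binds, all 11 genes were tested, 8 above 0 and 3 below, with a median of 0.11 and 0 past the threshold. PRDX3 and PRDX6, peroxiredoxins that remove peroxide with electrons from thioredoxin or glutathione, were at 289 ± 25.7 against 314 ± 19.2 CPM and at 273 ± 9.22 against 294 ± 11.3 CPM. TXN itself had a log2 fold change of 0.20 (SE 0.08) with an unadjusted p of 0.0299, which did not survive adjustment over all genes. In the network of MYC, MAX and the MXD factors, which shares MLX as a partner of some MXD proteins, 9 of 10 were tested, 3 above 0 and 6 below, with a median of -0.02. MYC was at 107 ± 19.1 against 123 ± 11.3 CPM and MXD4 at 76.4 ± 4.07 against 75.2 ± 2.26 CPM.

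Hexokinases, AMPK subunits and ubiquitin ligases for TXNIP had 10 of 14 tested, 3 above 0 and 7 below, with a median of -0.05. Their log2 fold changes ran from -0.21 to 0.61, with 0 past the threshold. The highest was above that of SLC2A1 (0.44). HK1, which makes the glucose phosphate that the MLX factors sense, was at 124 ± 6.68 against 113 ± 8.72 CPM, and PRKAB2, an AMPK beta subunit, at 104 ± 8.97 against 103 ± 8.98 CPM. ITCH, the ubiquitin ligase that marks TXNIP protein for degradation, had a log2 fold change of -0.15 (SE 0.13). RNA levels say nothing of TXNIP protein, AMPK activity or the position of MondoA in the cell.

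**Figure D5:**
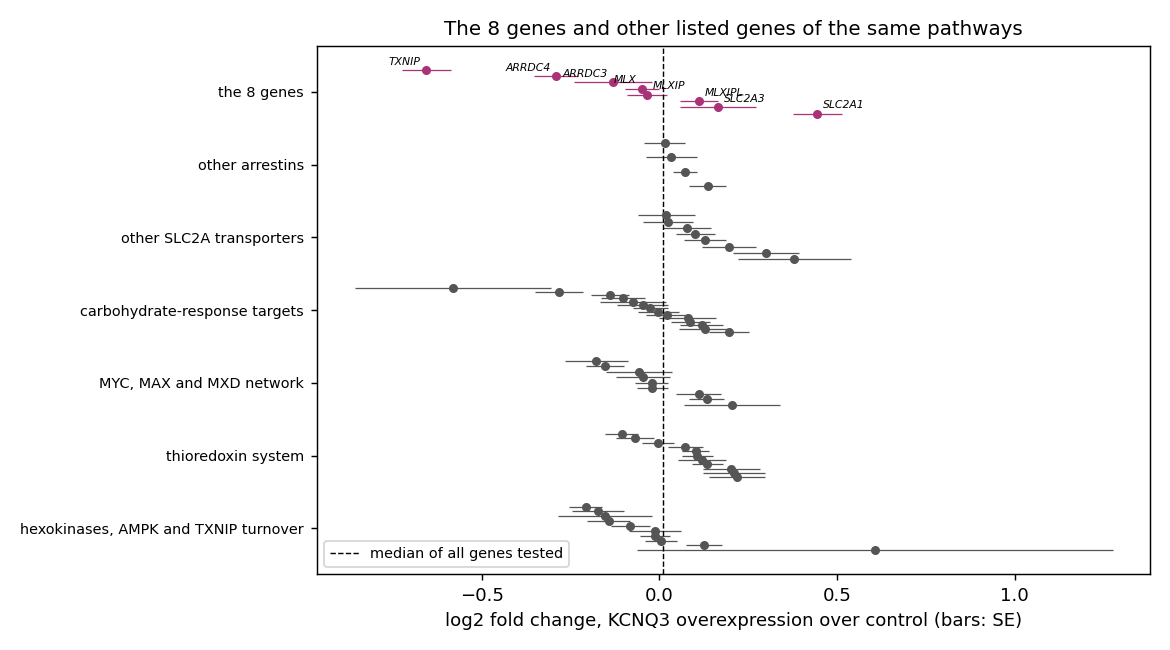
Log2 fold changes (overexpression over control, bars are SE) of the 8 genes and of the tested genes on 6 lists, against the median of all genes tested (dashed line, 0.01). TXNIP lies further below 0, at -0.66, than any tested gene of these lists, and SLC2A1 lies above each of the other SLC2A genes. The highest listed gene, at 0.61, lies above SLC2A1 and is on the list of hexokinases, AMPK subunits and ubiquitin ligases.

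Genes whose profile over the 8 libraries was most like that of TXNIP were sought among 10092 protein-coding genes with at least 10 CPM, by the root mean square difference of log2 CPM after centring each gene on its own mean. The nearest were ZNF79 (0.0715), SLFN5 (0.101), ARHGEF2 (0.1095), UNC5B (0.1105) and DDR2 (0.120). ARRDC4 stood at 0.189 and ARRDC3 at 0.281 on the same measure, so neither was among the nearest. The measure is not scaled for the size of a change, so a smaller fold change than that of TXNIP adds to the distance. ZNF79 went from 12.8 ± 1.19 to 8.70 ± 0.85 CPM and ARHGEF2 from 107 ± 18.2 to 70.1 ± 2.64 CPM. For SLC2A1 the nearest were PRR13 (0.0866), NDUFAF8 (0.0964), SPATA33 (0.0994), IKBIP (0.104) and MFSD3 (0.111), and SLC2A3 was at 0.159. PRR13 went from 31.5 ± 4.92 to 42.1 ± 0.89 CPM. These genes were picked for likeness, so their differences between the groups follow from the choice.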

How the data were processed

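The authors deposited estimated counts per Ensembl transcript, in whole numbers, and TPM per transcript, for 227751 transcripts in 8 libraries. StringTie 2.1.0, HISAT2 2.1.0, SAMtools 1.9, FastQC 0.11.5, cutadapt 2.8 and the build GRCh38.p13 are named in the submitters' processing notes. The sources used here give no annotation release or strand. Transcripts were matched by identifier to GENCODE 29 (GRCh38, whose coordinates are printed); 205804 matched, with 98.7% to 98.9% of counts. Both units were summed per gene, with no further rounding.

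Genes kept by filterByExpr (minimum count 10, minimum total 15) were tested with edgeR 4.0.16 (R 4.3.3) by the robust quasi-likelihood test on TMM-scaled counts, 4 libraries against 4, with Benjamini-Hochberg adjustment over all 19280 genes and a threshold of 0.05. The SE is the one implied by that test. The test was tested on simulated data. Alternatives were other scaling, filters, DESeq2 1.42.0 (local dispersion trend), limma 3.58.1 on log2(TPM + 1) and log2(TPM + 0.1), a replicate block, each library left out, coding transcripts alone, and SLC2A3 with SLC2A14. No 2 libraries of a group were copies (chi-square over its degrees of freedom 9.72 to 18.6). Log2 CPM for likeness had a prior count of 2.

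The 8 genes, the lists and the tests were chosen with earlier results of these data known. Named genes were the 8, KCNQ3, and from each list those past the threshold or else the 2 with the highest mean CPM over the 8 libraries, and the 5 nearest in profile to TXNIP and to SLC2A1. Others are said to be picked with values known, or are named by their place in a list. Promoter sequences are from RefSeq (GRCh38.p14).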

Additional observations from a re-analysis of the deposited data

Results flagged for a closer look

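MLXIP in control replicate 1 was at 77.9 CPM, far from the next control at 68.7 CPM and the other controls, all within a narrow range. The gap made up 0.994 of the range of the 4 controls, above Dixon's limit for groups of that size. Of 40 groups of 4 values examined, 1 was found, and chance gives about 1 in 20 groups. In TPM the same library was at 17.5 against 13.6 to 15.9 in the other controls, and it did not stand apart by this measure.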

How the results depend on the processing

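The number of genes past the threshold, 58, was 35 without a scaling factor, 1352 with DESeq2, 7 on both TPM scales, and 8 to 378 with a library left out (without overexpression replicates 2 and 1); each of the 8 left-out fits moved it by over 1.5 times. Of the listed genes 0 passed, against 5 with DESeq2, 1 (KLF10) with the replicate block, and 0 to 1 with a library left out (PRKAA2 without control replicate 4, KLF10 without overexpression replicate 1). TXNIP kept its sign in 17 of 17 alternatives (log2 -0.72 to -0.61) and lost its call in 3, at -0.71 for log2(TPM + 1), -0.72 for log2(TPM + 0.1) and -0.64 for coding transcripts alone. It passed with every library left out in turn (-0.71 to -0.61). SLC2A1 kept its sign in 17 of 17 and lost its call in 8, at 0.34 and 0.36 on the TPM scales, 0.52 for coding transcripts alone, and in 5 of the fits with a library left out (0.39 to 0.50 over all 8). MLXIP turned from -0.04 to 0.0087 without control replicate 1 (-0.074 to 0.0087 over the libraries left out). The cause of these losses was not tested. No pairing by replicate number was seen over all genes. Deviations of same-numbered libraries correlated at -0.05 to 0.01. The highest correlation was between control replicate 2 and overexpression replicate 3 (0.08). Low correlations over all genes cannot exclude a shared culture or day. With the replicate block 86 genes passed, TXNIP was at -0.65 and SLC2A1 at 0.45. No scaling moved the median of all genes by over 0.1.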

Other observations

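Within the overexpression group, the library with the least KCNQ3 on the CPM scale (replicate 1, 573 CPM) had the most TXNIP, ARRDC4 and ARRDC3 (86.2, 120 and 30.8 CPM), and that with the most KCNQ3 (replicate 4, 771 CPM) had the least (74.2, 97.2 and 23.0 CPM). The mitochondrially encoded share was also lowest and highest in these libraries, at 4.82% and 5.84%. On the TPM scale KCNQ3 was lowest in replicate 2 (139 TPM) and highest in replicate 1 (178 TPM), where TXNIP was highest too (50.01 TPM), so the order depends on how KCNQ3 is scaled. With 4 libraries no relation was tested.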
